A study of Homo sapiens with 38 samples.

Results

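Here C4-2B control line 1 is set against C4-2B control line 2. C4-2B cells descend from LNCaP, a line of human prostate cancer, and both are control lines of a study of 7p15.2, a risk locus near HOXA13. The 6 libraries used here, 3 of each line, were taken by their labels from the 18 C4-2B RNA-seq libraries, out of 38 samples in all. Both lines were grown in RPMI medium with fetal bovine serum, both carry the label wild type at the risk region, and both carry the label of the genome editing experiment. The labels say neither how a control line was made nor whether its 3 libraries came from separate cultures, and they call C4-2B tetraploid. For a few values below, the other C4-2B lines are also read: the deletion lines m, ld9 and le5, labelled as lacking the risk region, and control line 3, labelled wild type, with 3 libraries each. Each side is 1 line, so every p-value below measures the spread between libraries of a line and not the spread between lines.

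A cancer cell line is a mixed population, and cultures grown from single cells of it can keep different levels of the same genes over many divisions. The difference between control lines is the background against which an edited line is read. Luminal prostate cells make a set of secretory proteins, of which KLK3 (prostate-specific antigen) is the best known. Cells that secrete much protein also rely on the unfolded protein response, in which chaperones of the endoplasmic reticulum are induced when folding demand exceeds capacity.

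Expression was given in TPM, a transcript share corrected for length, so the read depth of single libraries is unknown. Between 14751 and 14848 genes reached 1 TPM in each of the 6 libraries, and mitochondrially encoded genes took 10.8% to 12.7% of the TPM. Pairs of libraries of the same line had Pearson correlations of 0.981 to 0.985 across genes, and pairs from different lines 0.976 to 0.980, over genes that are not independent of each other. The first principal component held 33.9% of the variance and put the libraries of line 1 on one side and those of line 2 on the other. Both lines expressed luminal markers: the luminal keratin KRT8 averaged 276 ± 22.4 TPM in line 1 and 273 ± 13.4 TPM in line 2 (SD, n = 3 each). The 11 identity markers summed to between 5107 and 5782 TPM in line 1 libraries and between 5978 and 6283 TPM in line 2 libraries. Of 4 basal markers, KRT5 and TP63 were listed at 0 in all 6 libraries, and the 4 basal markers together summed to at most 1.95 TPM in line 1 and 3.62 TPM in line 2. The 4 immune markers summed to at most 0.3 TPM in line 1 and 0.29 TPM in line 2. In bulk RNA, fewer cells of a type and less RNA per cell cannot be told apart.

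Of 14924 genes with at least 1 TPM in 3 or more of the 6 libraries, 793 differed between line 1 and line 2 at an adjusted p under 0.05, or 5.31% of the genes tested. Of these, 471 genes were higher in line 1 (3.16%) and 322 were lower (2.16%). At an unadjusted p under 0.05 there were 3307 genes. Most differences were small, with a median absolute log2 difference of 0.47 among the 793 genes, while 430 of them differed by less than 0.5 on the log2(TPM + 1) scale. At least 2-fold differences were called for 115 genes (0.771%), 64 higher and 51 lower in line 1. The median over all genes tested was 0.02. In 28.3% of the genes tested the 3 libraries of line 1 did not overlap the 3 of line 2, and all 793 called genes were among them. The count depended on each library, and it fell to between 283 and 533 genes when any 1 of the 6 was left out, with 283 without replicate 3 of line 1, 289 without its replicate 1, 318 without its replicate 2, 307 without replicate 2 of line 2, and 319 without its replicate 3. The count of genes at least 2-fold apart moved far less, to between 85 and 94.

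The gene furthest apart was GULP1, an adaptor in the engulfment of dying cells, on chromosome 2. GULP1 had 29.1, 30.9 and 30.1 TPM in the libraries of line 1, against 0.29, 0.2 and 0.66 TPM in those of line 2. It was near 0 in line 2 and well expressed in line 1, with a log2 difference of 4.50 ± 0.14 (SE, adjusted p = 6.21e-05). TFPI, the inhibitor of the tissue factor pathway of blood clotting, is the neighbour of GULP1 among the genes tested. TFPI had 11.4, 16.0 and 13.1 TPM in line 1 and 0.54, 0.02 and 0.2 TPM in line 2, a log2 difference of 3.54 ± 0.19 (adjusted p = 3.89e-04). The libraries of both lines were far apart for both neighbours. Both genes stayed below 1 TPM in line 2, so they were tested only because of their level in line 1. Fits without 1 library of line 1 did not test them.

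FOLH1 encodes prostate-specific membrane antigen, a surface enzyme used as a target for imaging and treatment of prostate cancer. FOLH1 had 79.4, 64.0 and 79.4 TPM in line 1 and 8.86, 8.1 and 10.1 TPM in line 2, so its mean was 8.23 times higher in line 1 (log2 difference 2.91 ± 0.11, adjusted p = 1.26e-04). Every library of line 1 was above every library of line 2. FOLH1B, a near-identical copy that could share reads with it, reached at most 0.23 TPM in these 6 libraries.

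Other genes far higher in line 1 encode signalling regulators and secreted proteins. THBS1, the matrix glycoprotein thrombospondin 1, had 63.0, 83.0 and 69.0 TPM in line 1, against 12.95, 11.8 and 10.2 TPM in line 2 (log2 difference 2.52 ± 0.12, adjusted p = 2.77e-04). LPL, lipoprotein lipase, had 22.2, 28.7 and 26.0 TPM in line 1 and 5.23, 4.08 and 5.02 TPM in line 2 (2.20 ± 0.13, adjusted p = 4.17e-04). Neither gene overlapped between the lines. BMP7, a ligand of the bone morphogenetic protein family, averaged 27.5 ± 3.25 TPM in line 1 and 7.28 ± 1.22 TPM in line 2. GRIN3A, a glutamate receptor subunit, averaged 12.9 TPM in line 1 and 0.983 TPM in line 2, and CAMK2N1, an inhibitor of the kinase CaMKII, averaged 11.6 TPM in line 1 and 0.983 TPM in line 2. RND3, an atypical small GTPase, averaged 10.97 TPM in line 1 and 1.08 TPM in line 2. PKIA, an inhibitor of protein kinase A, averaged 4.08 TPM in line 1 and 0.21 TPM in line 2, and was tested only because of its level in line 1. FGD3, an exchange factor for small GTPases, also ranked among the highest, but its libraries in line 1 held 35.9, 6.37 and 14.9 TPM, against 1.78, 1.85 and 1.11 TPM in line 2. Its adjusted p reached up to 0.109 in limma fits without replicate 3 of line 1 or any 1 library of line 2. The 15 highest also held GPC5-AS1 and TEX15, and 3 small RNA-related or pseudogene entries listed at 0 throughout line 2, RN7SL75P, POLR3GP1 and RN7SL4P, whose reads other copies may share. RN7SL75P and RN7SL4P lost their calls without any 1 library of line 2 (adjusted p up to 0.105 and 0.0753 with limma). GPC5-AS1 is an antisense gene, and the sources used here do not say whether reads were counted by strand.

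**Figure D1:**
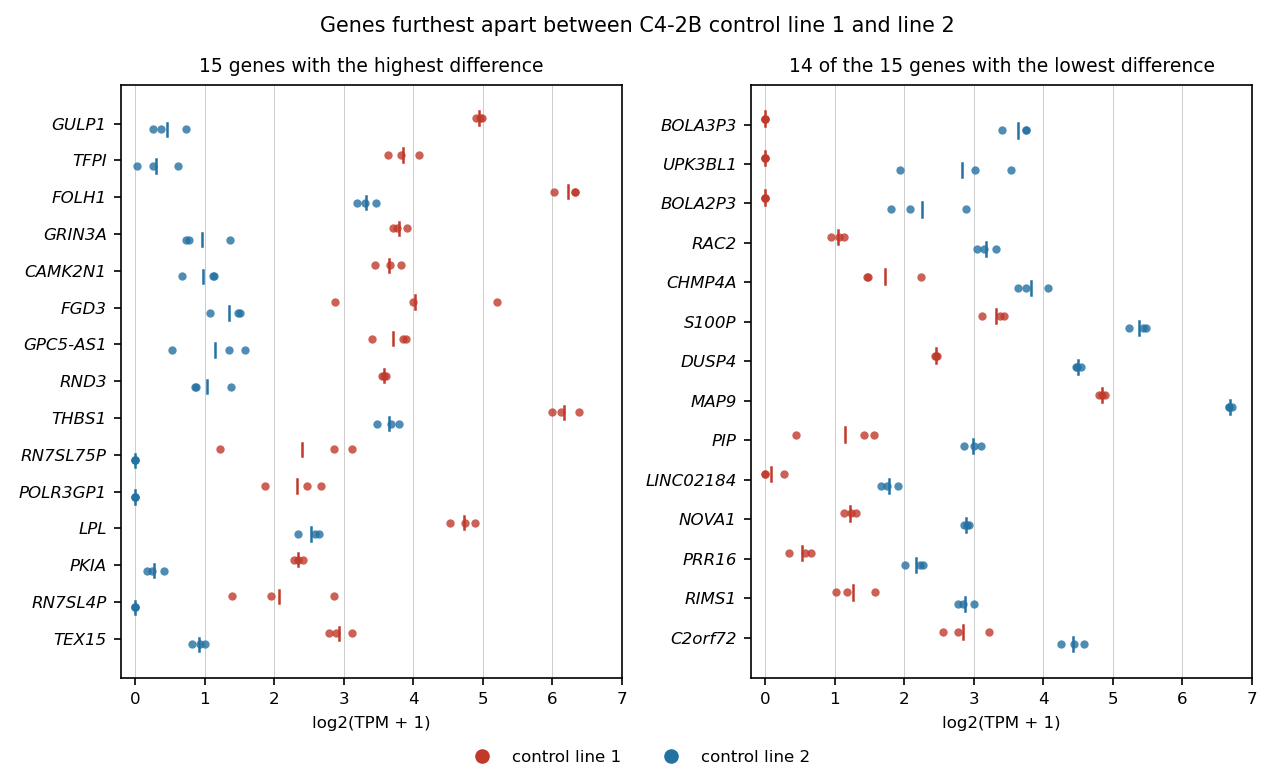
The 15 highest called genes by log2 difference and 14 of the 15 lowest, with log2(TPM + 1) on the horizontal axis, 1 point for each library of line 1 (red) and line 2 (blue) and a tick at the mean. The points of the lines do not overlap for any gene shown, and FGD3 has the widest spread within line 1.

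The genes lowest in line 1 were of other kinds. RAC2, a small GTPase best known from blood cells, had 1.09, 0.93 and 1.19 TPM in line 1 and 7.26, 7.9 and 9.04 TPM in line 2 (log2 difference -2.13 ± 0.12, adjusted p = 4.25e-04). S100P, a calcium-binding protein, had 7.73, 9.85 and 9.43 TPM in line 1 and 42.1, 36.5 and 43.7 TPM in line 2 (-2.06 ± 0.11, adjusted p = 3.64e-04). DUSP4, a phosphatase that switches off MAP kinases, had 4.48, 4.55 and 4.41 TPM in line 1 and 21.1, 22.3 and 21.5 TPM in line 2 (-2.04 ± 0.07, adjusted p = 1.02e-04). For all 3 genes the lowest library of line 2 was several times the highest of line 1. MAP9, which binds microtubules of the spindle, had the lowest adjusted p of all genes: 28.6, 26.9 and 27.8 TPM in line 1 against 101, 105 and 101 TPM in line 2 (-1.84 ± 0.05, adjusted p = 4.47e-05).

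Among other genes with low levels in line 1, NOVA1, a splicing factor of neurons, averaged 1.34 TPM in line 1 and 6.44 TPM in line 2. CHMP4A, a subunit of the ESCRT-III membrane scission complex, averaged 2.43 TPM in line 1 and 13.2 TPM in line 2. PIP, RIMS1, PRR16, C2orf72 and LINC02184 were also among the 15, with means of 0.0667 to 6.33 TPM in line 1 and 2.43 to 20.7 TPM in line 2. PIP lost its call without any 1 library of line 2 (limma adjusted p up to 0.0714). The most extreme entries were less certain. BOLA3P3 and BOLA2P3, pseudogene entries, and UPK3BL1, which has a close copy, were each listed at 0 in all 3 libraries of line 1 and at 2.49 to 12.5 TPM in those of line 2, and reads of their parent genes could be counted there. The parent BOLA3 itself had 68.2 to 75.0 TPM in line 1 and 67.4 to 74.1 TPM in line 2.

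Several abundant genes were also at least 2-fold apart. ASS1, the arginine synthesis enzyme, averaged 195 ± 15.2 TPM in line 1 and 77.1 ± 5.03 TPM in line 2, and CLU, a secreted chaperone, averaged 113 ± 2.49 TPM in line 1 and 43.7 ± 3.25 TPM in line 2. H2AJ, a histone variant, averaged 68.7 TPM in line 1 and 30.5 TPM in line 2. On the other side, OCIAD2 averaged 184 ± 35.4 TPM in line 1 and 429 ± 13.7 TPM in line 2. The protease inhibitor SLPI averaged 42.8 TPM in line 1 and 103 TPM in line 2, DDC, which makes dopamine and serotonin from their precursors, 22.2 TPM in line 1 and 56.9 TPM in line 2, and fibronectin, FN1, 20.0 TPM in line 1 and 46.2 TPM in line 2. KDM6A, an X-linked demethylase of histone H3 lysine 27, had 79.5, 78.8 and 75.0 TPM in line 1 and 149, 157 and 150 TPM in line 2 (log2 difference -0.96 ± 0.05, adjusted p = 2.41e-04). It was the only called gene among 32 measured genes of CTCF, cohesin and Polycomb, where 5.31% of all genes tested were called. Its paralog KDM6B had 154, 168 and 139 TPM in line 1, against 64.4, 142 and 31.2 TPM in line 2, and did not pass (adjusted p = 0.202).

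The unfolded protein response list held the largest share of called genes of the 43 lists. Of its 16 measured members 11 were higher in line 1 and 0 were lower, where 3.16% of all genes were higher, and its median log2 difference was 0.53 against 0.02 over all genes. At an unadjusted p under 0.05 with limma 13 members were higher and 1 was lower. HSPA5, the master chaperone BiP of the endoplasmic reticulum, had 715, 739 and 756 TPM in line 1 and 408, 404 and 423 TPM in line 2 (log2 difference 0.84 ± 0.04, adjusted p = 1.74e-04). The lowest library of line 1 was well above the highest of line 2. HSP90B1, the HSP90 of the same compartment, had 823, 819 and 826 TPM in line 1, against 510, 546 and 538 TPM in line 2 (0.63 ± 0.04, adjusted p = 4.12e-04). CALR, a calcium-binding lectin chaperone, averaged 1203 ± 21.3 TPM in line 1 and 854 ± 15.5 TPM in line 2. The difference was shared by cochaperones and folding helpers, with DNAJC3 at 36.9 TPM in line 1 and 22.1 TPM in line 2, HYOU1 at 210 TPM in line 1 and 139 TPM in line 2, and SDF2L1 at 124 TPM in line 1 and 80.4 TPM in line 2. MANF, a secreted stress-induced factor, averaged 421 TPM in line 1 and 259 TPM in line 2, and HERPUD1, which serves the degradation of misfolded proteins, averaged 245 TPM in line 1 and 155 TPM in line 2. CRELD2 averaged 113 TPM in line 1 and 75.9 TPM in line 2, and the disulfide isomerases PDIA6 and PDIA4 were the called members with the smallest differences, at 0.45 and 0.36. The differences of the 11 members ran from 0.36 to 0.84, so none reached 2-fold.

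Of the 5 members that did not pass, XBP1, a transcription factor of the response, averaged 168 ± 7.00 TPM in line 1 and 187 ± 4.23 TPM in line 2 (adjusted p = 0.103). SEL1L, DNAJB9 and EDEM1, which act in the disposal of misfolded proteins, and SEC61B, a subunit of the translocation channel, had log2 differences between -0.11 and 0.27. Genes of the amino acid branch of stress did not follow: of 23 measured members 1 was higher and 3 were lower in line 1, with a median of -0.13, and ASNS, asparagine synthetase, averaged 198 TPM in line 1 and 263 TPM in line 2. By limma the cytosolic heat shock list had 1 member higher and 1 lower of 13, both by less than 0.2. The counts of both lists stand beside 3.16% of all genes tested that were higher in line 1 and 2.16% that were lower. All 11 members kept their call when genes were scaled by median ratio or by quantiles, and 10 or 11 members were called whichever library was left out. SDF2L1 lost its call without replicate 1 of line 1 or replicate 2 or 3 of line 2 (limma adjusted p up to 0.0576). In a fit on all 9 control libraries, which takes in the spread of control line 3, 3 members were called.

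**Figure D2:**
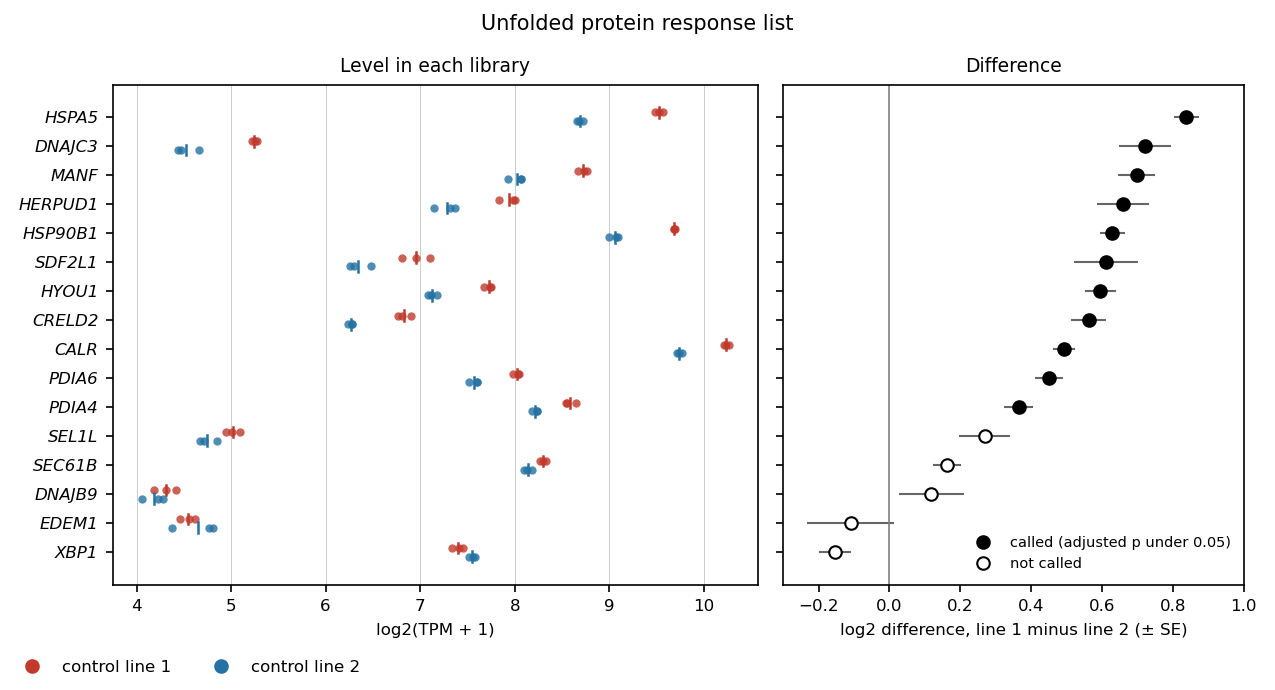
The 16 members of the unfolded protein response list, with log2(TPM + 1) in each library of line 1 (red) and line 2 (blue) on the left and the log2 difference of line 1 minus line 2 with its standard error on the right. The 11 filled points, called at an adjusted p under 0.05, lie between 0.36 and 0.84, and XBP1 is lowest at -0.15.

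Many genes of this response carry the endoplasmic reticulum stress element (ERSE), which ATF6 and XBP1 with NF-Y bind, in their promoters. The promoters below are shown because 5 of the 11 called members hold this element, HYOU1 holds a variant of it, and XBP1 holds it without a call. Each window runs from 250 bases before to 50 bases after a start of the gene, 5′ to 3′ on the strand of the gene, from RefSeq on GRCh38.p14. PDIA6 and XBP1 also had another start, and the window with the element is shown. The window of the other start, chr2:10832436-10832735 for PDIA6 and chr22:28800028-28800327 for XBP1, held 0 ERSE. The capitals mark the ERSE, which is CCAAT, then 9 bases of any kind, then CCACG, or on the other strand CGTGG, 9 bases and ATTGG. In HYOU1 they mark the related ERSE-II, which is ATTGG, 1 base and CCACG, or CGTGG, 1 base and CCAAT. No ERSE overlapped an ERSE-II.
HSPA5, chr9:125241294-125241593, minus strand: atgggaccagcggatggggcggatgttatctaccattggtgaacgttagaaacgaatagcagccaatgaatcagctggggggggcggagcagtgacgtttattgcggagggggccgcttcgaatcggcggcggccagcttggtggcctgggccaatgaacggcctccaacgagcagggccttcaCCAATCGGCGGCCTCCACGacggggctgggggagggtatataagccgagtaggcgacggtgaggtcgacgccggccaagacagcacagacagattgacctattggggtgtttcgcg
HSP90B1, chr12:103930160-103930459, plus strand: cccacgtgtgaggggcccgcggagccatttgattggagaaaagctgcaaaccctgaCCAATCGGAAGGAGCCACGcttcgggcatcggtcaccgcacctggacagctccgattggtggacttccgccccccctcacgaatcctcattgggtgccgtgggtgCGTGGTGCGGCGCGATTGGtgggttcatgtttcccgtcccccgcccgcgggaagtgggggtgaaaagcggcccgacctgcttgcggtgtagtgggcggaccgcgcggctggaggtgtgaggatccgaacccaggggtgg
CALR, chr19:12938359-12938658, plus strand: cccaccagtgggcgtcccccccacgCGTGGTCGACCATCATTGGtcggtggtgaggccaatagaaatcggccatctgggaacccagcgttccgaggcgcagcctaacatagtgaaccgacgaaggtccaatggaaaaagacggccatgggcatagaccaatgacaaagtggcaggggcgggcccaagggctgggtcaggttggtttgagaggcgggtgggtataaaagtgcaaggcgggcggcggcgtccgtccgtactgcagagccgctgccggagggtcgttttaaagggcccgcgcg
PDIA6, chr2:10812736-10813035, minus strand: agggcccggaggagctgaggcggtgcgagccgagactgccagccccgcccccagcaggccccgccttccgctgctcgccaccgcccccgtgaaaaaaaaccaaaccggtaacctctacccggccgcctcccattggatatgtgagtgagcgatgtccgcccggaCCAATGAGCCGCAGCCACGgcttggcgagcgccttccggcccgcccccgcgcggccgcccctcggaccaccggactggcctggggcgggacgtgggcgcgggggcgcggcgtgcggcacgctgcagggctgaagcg
CRELD2, chr22:49918384-49918683, plus strand: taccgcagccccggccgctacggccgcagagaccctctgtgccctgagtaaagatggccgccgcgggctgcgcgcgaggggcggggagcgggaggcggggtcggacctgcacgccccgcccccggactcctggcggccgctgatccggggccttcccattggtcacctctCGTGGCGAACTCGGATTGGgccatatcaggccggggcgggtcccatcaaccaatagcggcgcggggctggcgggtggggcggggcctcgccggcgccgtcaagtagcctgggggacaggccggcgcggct
HYOU1, chr11:119057156-119057455, minus strand: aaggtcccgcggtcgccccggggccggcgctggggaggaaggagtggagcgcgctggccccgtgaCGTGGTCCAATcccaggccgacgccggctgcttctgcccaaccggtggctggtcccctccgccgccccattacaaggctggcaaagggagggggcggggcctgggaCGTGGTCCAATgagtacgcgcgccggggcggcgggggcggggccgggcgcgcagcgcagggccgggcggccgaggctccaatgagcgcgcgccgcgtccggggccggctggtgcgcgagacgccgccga
XBP1, chr22:28800520-28800819, minus strand: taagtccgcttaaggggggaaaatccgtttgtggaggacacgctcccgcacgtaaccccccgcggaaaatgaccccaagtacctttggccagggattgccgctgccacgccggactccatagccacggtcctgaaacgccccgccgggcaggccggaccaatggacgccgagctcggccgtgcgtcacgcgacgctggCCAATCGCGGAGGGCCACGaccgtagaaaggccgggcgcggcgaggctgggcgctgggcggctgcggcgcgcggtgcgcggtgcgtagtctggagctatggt

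The ERSE was found in 15 of the 10289 promoters of genes tested (0.146%), and in 27 of all 35116 promoters of the RefSeq table (0.0769%). It was in 6 of the 16 list members and in 5 of the 11 called ones (HSPA5, HSP90B1, CALR, CRELD2 and PDIA6), while HYOU1, HERPUD1 and SDF2L1 held ERSE-II. Of the 15 tested genes with an ERSE, 7 were higher in line 1 and 0 were lower, where 3.16% of all genes tested were higher. The median log2 difference of the 15 genes was 0.26. Outside the list, 2 of 9 such genes were called: CANX, the membrane chaperone calnexin, at 597 ± 10.7 TPM in line 1 and 500.0 ± 33.0 TPM in line 2, and ALG12, an enzyme of N-glycan assembly, at 32.7 TPM in line 1 and 23.7 TPM in line 2. ALG12 and CRELD2 start head to head and share 295 of their 300 bases, so their element is a single site. The uncalled genes EIF2A and SERP1 likewise share 210 bases and 1 site, so the 16 elements counted gene by gene in the 15 promoters are 14 distinct sites, and the 9 genes outside the list include 1 site counted for both EIF2A and SERP1. XBP1 carried an ERSE and was not called. CANX and ALG12 lost their calls in 5 of 6 leave-one-out fits each (limma adjusted p up to 0.117 and 0.142), CANX in all but the fit without replicate 1 of line 2 and ALG12 in all but that without replicate 2 of line 1. In a fit on all 9 control libraries 1 of the 15 genes was called, and in a fit on all 18 libraries 4.

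Single genes of luminal prostate cells, chosen after their values were seen, are given next. KLK3 had a mean of 2634 ± 114 TPM in line 1 and 3128 ± 160.0 TPM in line 2 (log2 difference -0.25 ± 0.05, adjusted p = 0.0361). That call was lost in each leave-one-out fit except the one without replicate 3 of line 2 (limma adjusted p up to 0.123). ABCC4, an efflux transporter, averaged 58.0 TPM in line 1 and 82.6 TPM in line 2, CAMKK2, an upstream kinase of AMPK, 30.0 TPM in line 1 and 42.5 TPM in line 2, and SLC45A3, also called prostein, 41.1 TPM in line 1 and 55.3 TPM in line 2. STEAP2, a metalloreductase, was lower too, at 117 TPM in line 1 and 143 TPM in line 2. KLK2, the kallikrein next to KLK3, had 765, 916 and 767 TPM in line 1 and 1067, 1060 and 946 TPM in line 2 and did not pass (adjusted p = 0.0724). TMPRSS2 varied from 123 to 511 TPM among the 6 libraries, a wide spread within both lines (adjusted p = 0.796). FKBP5, an immunophilin, had a log2 difference of -0.04 and did not pass. Of 11 luminal factors 3 were lower (2.16% of all genes were) and 0 higher, with a median of -0.09. They were EHF, CREB3L4 and SPDEF, EHF with 364 ± 5.27 TPM in line 1 and 494 ± 14.7 TPM in line 2, while FOXA1 and HOXB13 did not pass. Of 10 measured genes of androgen and steroid metabolism 0 were called by limma, and at an unadjusted p under 0.05 there were 4 higher and 1 lower. Of all 14924 genes tested 5.31% were called, and 3307 had an unadjusted p under 0.05. CREB3L4, SLC45A3, CAMKK2 and ABCC4 kept their calls in every leave-one-out fit, and SPDEF lost its call in all 6 (adjusted p up to 0.109). STEAP2 lost its call without replicate 2 or 3 of either line (limma adjusted p up to 0.0607).

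Of 28 measured proliferation genes 6 were higher in line 1 (3.16% of all genes were) and 0 were lower (2.16% of all genes were), with a median of 0.10. At an unadjusted p under 0.05 with limma 10 were higher and 0 lower. CCNE2, cyclin E2, averaged 31.0 ± 1.59 TPM in line 1 and 19.7 ± 2.60 TPM in line 2, and CDC20, an activator of the anaphase-promoting complex, averaged 217 TPM in line 1 and 168 TPM in line 2. UBE2C, MCM5, MCM4 and PLK1 were the others, at log2 differences of 0.25 to 0.29, while MKI67, the antigen Ki-67, averaged 57.3 TPM in line 1 and 53.8 TPM in line 2 and did not pass. These calls rested on most libraries: without replicate 1 of line 2 again 6 members were called higher, but without any other 1 library 0 or 1 was. Of 14 measured TGF-beta and BMP genes, 3 were higher, again beside 3.16% of all genes: BMP7 and the BMP-induced ID1 and ID4. ID1 had 84.4, 93.5 and 91.3 TPM in line 1 and 65.2, 63.2 and 54.8 TPM in line 2. Its call was lost without replicate 2 or 3 of line 1 (limma adjusted p up to 0.0572), and that of ID4 whichever library was left out (up to 0.137).

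Metabolic lists were mixed. Their counts stand beside 3.16% of all genes tested that were higher in line 1 and 2.16% that were lower. Fatty acid synthesis had 4 members higher and 2 lower of 19, with ELOVL6, which lengthens fatty acids, at 12.7 TPM in line 1 and 7.74 TPM in line 2, and ACSL3, an acyl-CoA synthetase, at 501 TPM in line 1 and 707 TPM in line 2. Cholesterol synthesis had 3 higher and 1 lower of 23, with SC5D and MVK higher and FDFT1, squalene synthase, lower at 473 TPM in line 1 and 591 TPM in line 2. Polyamine metabolism had 3 lower of 12: SMS, spermine synthase, SAT1, which acetylates polyamines, and ARG2, a mitochondrial arginase. The iron storage subunits went opposite ways, FTH1, which has many processed copies, with 3153 TPM in line 1 and 2591 TPM in line 2, and FTL with 201 ± 10.8 TPM in line 1 and 279 ± 7.75 TPM in line 2. Of 30 ribosomal protein genes 5 were lower (2.16% of all genes were) and 0 higher, by at most 0.28, and 1 of 30 had a positive difference. Ribosomal calls fell to 1 or 2 whichever library was left out, and to 1 with quantile normalization. MVK, SC5D and ARG2 lost their calls in 4 or 5 of the 6 leave-one-out fits (limma adjusted p up to 0.117), SC5D without any 1 of the libraries of line 1 or replicate 2 of line 2, MVK in all but the fit without replicate 2 of line 2, and ARG2 in all but that without replicate 1 of line 2. ELOVL6 lost its call without replicate 2 of line 2 (0.0538).

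With limma, several programs gave no call at an adjusted p under 0.05: interferon response (0 of 20 measured), hypoxia and glycolysis (0 of 29), immediate early genes (0 of 17), replication-dependent histones (0 of 16), Notch (0 of 12), DNA methylation and histone deacetylation (0 of 24), NF-kB (0 of 6), metallothioneins (0 of 4), the HOXB cluster (0 of 7) and basal markers (0 of 7). Of all genes tested 5.31% were called, so a list of 4 to 7 measured members would often hold 0 calls at that share. The medians of these lists lay between -0.09 and 0.14. At an unadjusted p under 0.05 there were 5 interferon genes, 1 of hypoxia and glycolysis, 3 immediate early genes, 4 histones, 2 Notch genes, 4 of DNA methylation and histone deacetylation, 3 of NF-kB, 1 metallothionein, 2 HOXB genes and 1 basal marker. These counts stand beside 3307 of all 14924 genes tested at the same threshold. MT2A, a metallothionein, ranged from 101 to 129 TPM in line 1 and from 87.1 to 178 TPM in line 2. Most of the remaining lists with measured members had 1 to 3 called members, and the fibroblast and endothelial list had 0 of 3. Among 12 measured imprinted genes 3 were called, as were 3 of 14 of antigen processing, beside 5.31% of all genes tested. GRB10, an imprinted adaptor of insulin signalling, had 33.4, 29.0 and 32.9 TPM in line 1 and 56.8, 56.0 and 61.7 TPM in line 2. TAP1, a peptide transporter of antigen processing, averaged 2.01 TPM in line 1 and 4.29 TPM in line 2. TAP1 lost its call without replicate 1 or 2 of line 1 or replicate 3 of line 2 (adjusted p up to 0.0575).

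**Figure D3:**
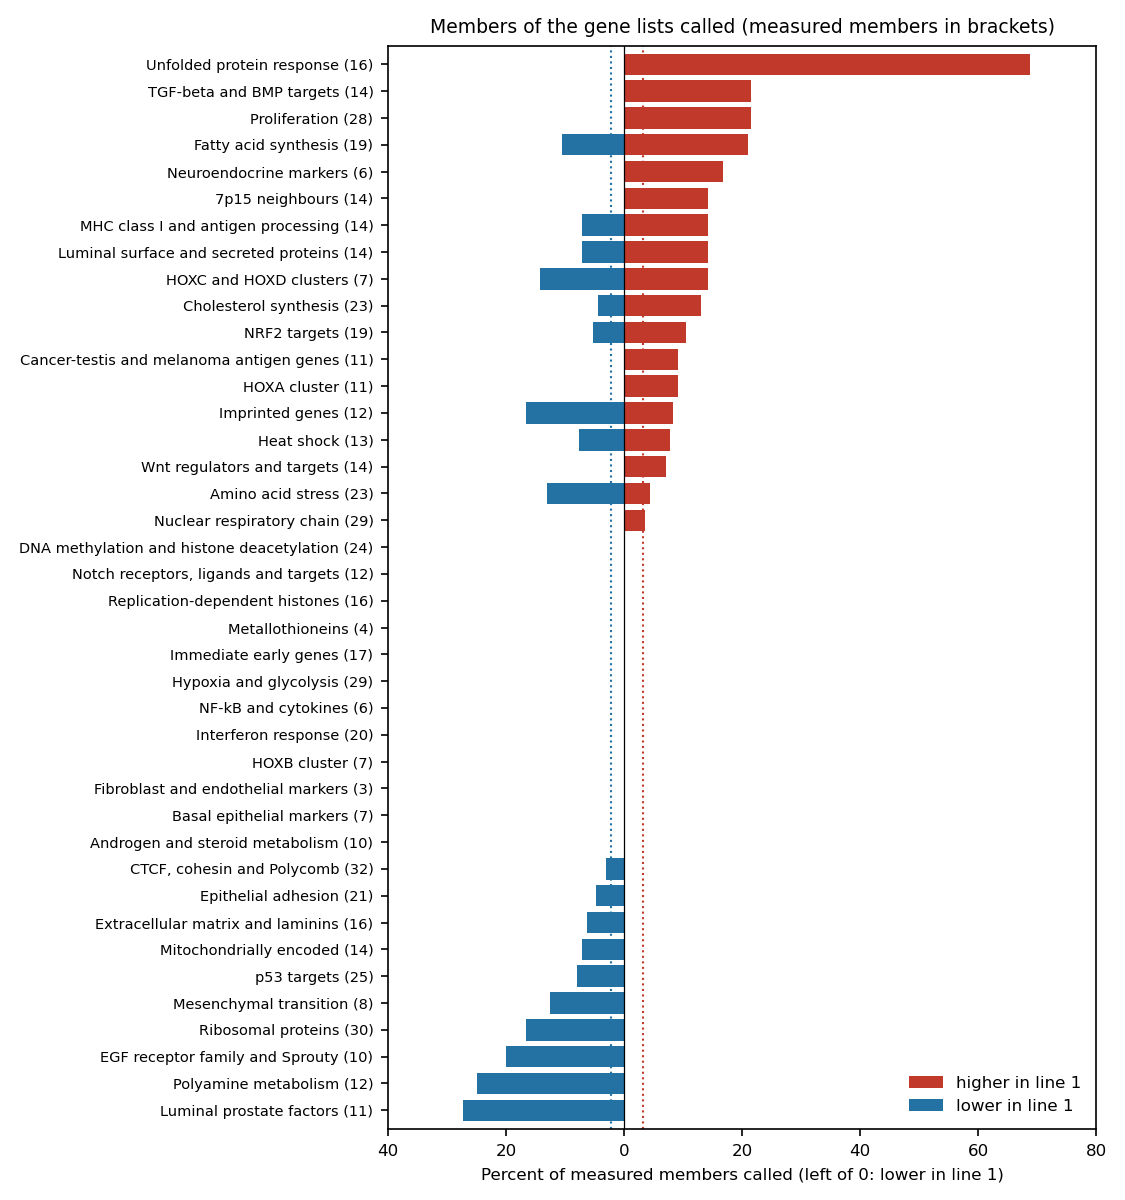
Percent of the measured members of the gene lists described here that were called higher in line 1 (red, right of 0) or lower in line 1 (blue, left of 0), with the number measured in brackets and dotted lines at the 3.16% and 2.16% of all genes tested. The unfolded protein response list stands furthest out, with 11 of 16 members higher.

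HOXA13, the gene whose regulation the study asks about, encodes a developmental transcription factor. It had 1.45, 1.59 and 1.12 TPM in line 1 and 1.13, 1.99 and 1.8 TPM in line 2, and the lines overlapped. Its log2 difference was -0.14 ± 0.18 (adjusted p = 0.709), and an exact two-sided permutation test gave p = 0.4, where the smallest p this design allows is 0.1. JAZF1, which also lies near the risk region, had 1.15, 1.27 and 1.01 TPM in line 1 and 2.41, 1.17 and 1.49 TPM in line 2 and did not pass (adjusted p = 0.423). Of the 11 measured genes of the HOXA cluster HOXA4 alone was called, with 3.13, 2.19 and 4.07 TPM in line 1 and 0.89, 0.96 and 1.46 TPM in line 2 (0.96 ± 0.21, adjusted p = 0.0475), and its call was lost in each leave-one-out fit except the one without replicate 2 of line 1 (adjusted p up to 0.136), and also with other scalings. HOXA10, the most abundant of them, averaged 42.1 ± 4.16 TPM in line 1 and 33.9 ± 1.97 TPM in line 2 (adjusted p = 0.0949). Of 14 measured 7p15 neighbours, CYCS, cytochrome c, and CBX3, a heterochromatin protein, were higher in line 1 and 0 were lower. Of all genes tested 3.16% were higher in line 1, and 5.31% were called in either direction. CYCS had 813, 795 and 820 TPM in line 1 and 504, 520 and 555 TPM in line 2 (0.62 ± 0.04, adjusted p = 6.94e-04).

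The position of the called genes on the genome was uneven. On chromosome 7, 103 of 666 tested genes were called (15.5%), against 654 of 12608 tested genes with a known place on other chromosomes (5.19%). The genes were then taken in windows of 25 neighbours in the order of RefSeq on GRCh38.p14. Of 520 windows, 8 had a median log2 difference of 0.2 or more in either direction, and all 8 were on chromosome 7. Outside chromosome 7 the window medians ran from -0.14 to 0.19. The stretches below were drawn from these same values, so they are described and not tested.

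At the tip of the short arm, 100 tested genes in a row, from LINC03015 to FAM221A, had a median log2 difference of 0.42, or 1.34-fold. Of the 100, 97 were higher in line 1, 43 of them called, while 0 were called lower. The 43 calls by limma fell to between 19 and 26 when any 1 library was left out, except 35 without replicate 1 of line 2, while the median stayed between 0.41 and 0.43. The shift ran through unrelated genes. ACTB, beta-actin, averaged 2394 ± 55.0 TPM in line 1 and 1908 ± 89.8 TPM in line 2. RAC1, a small GTPase of the actin cytoskeleton, averaged 231 ± 1.26 TPM in line 1 and 172 ± 7.67 TPM in line 2, EIF3B, a translation initiation subunit, 303 TPM in line 1 and 211 TPM in line 2, and KDELR2, which returns chaperones to the endoplasmic reticulum, 261 TPM in line 1 and 185 TPM in line 2. PDGFA, a growth factor, averaged 3.78 TPM in line 1 and 1.47 TPM in line 2. The 9 tested genes that follow, from PALS2 to SKAP2, had a median of 0.31, the 11 of the HOXA cluster from HOTAIRM1 to HOXA13 one of 0.04, and the next 25 genes one of -0.00, with 0 called. Over the HOXA cluster and these next 25 genes the medians were thus near 0. The single differences of the 11 HOXA cluster genes ran from -0.37 to 0.96, and most of these genes had low levels.

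On the long arm the direction was the other way. From GCC1 to PDIA4, 100 tested genes had a median of -0.25, and 87 of the 100 were lower in line 1, 28 of them called. Those 28 calls fell to between 6 and 12 when any 1 library was left out, except 20 without replicate 1 of line 2, and the median stayed between -0.27 and -0.24. SSBP1, which binds mitochondrial DNA, averaged 436 ± 6.23 TPM in line 1 and 504 ± 15.1 TPM in line 2, and ARF5, a GTPase of membrane traffic, averaged 178 ± 5.34 TPM in line 1 and 222 ± 4.03 TPM in line 2. The imprinted gene MEST averaged 96.9 TPM in line 1 and 127 TPM in line 2, and its neighbour COPG2, a coatomer subunit, 27.6 TPM in line 1 and 44.6 TPM in line 2. SSBP1 and MEST lost their calls in 5 of 6 leave-one-out fits each (limma adjusted p up to 0.089 and 0.107), SSBP1 in all but the fit without replicate 1 of line 2 and MEST in all but that without replicate 2 of line 1. Of the 2 genes called higher within this stretch, PDIA4 is the chaperone of the unfolded protein response list described above, and RN7SL481P is a small RNA pseudogene. Beyond PDIA4 the difference ran on at a smaller size: the last 2 windows, from ZNF786 to ABCB8 and from ASIC3 to EN2, had medians of -0.17 and -0.16, both below the lowest window outside chromosome 7, and the libraries of line 1 and line 2 did not overlap in either, as in 126 of the 494 windows outside chromosome 7. In the window from ASIC3 to EN2 4 genes were called lower and 2 of 25 had a positive difference, while in that from ZNF786 to ABCB8 1 gene was called, higher in line 1. With the chromosome 7 genes left out of the fit, 653 genes were called elsewhere. DNA was not analysed here.

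**Figure D4:**
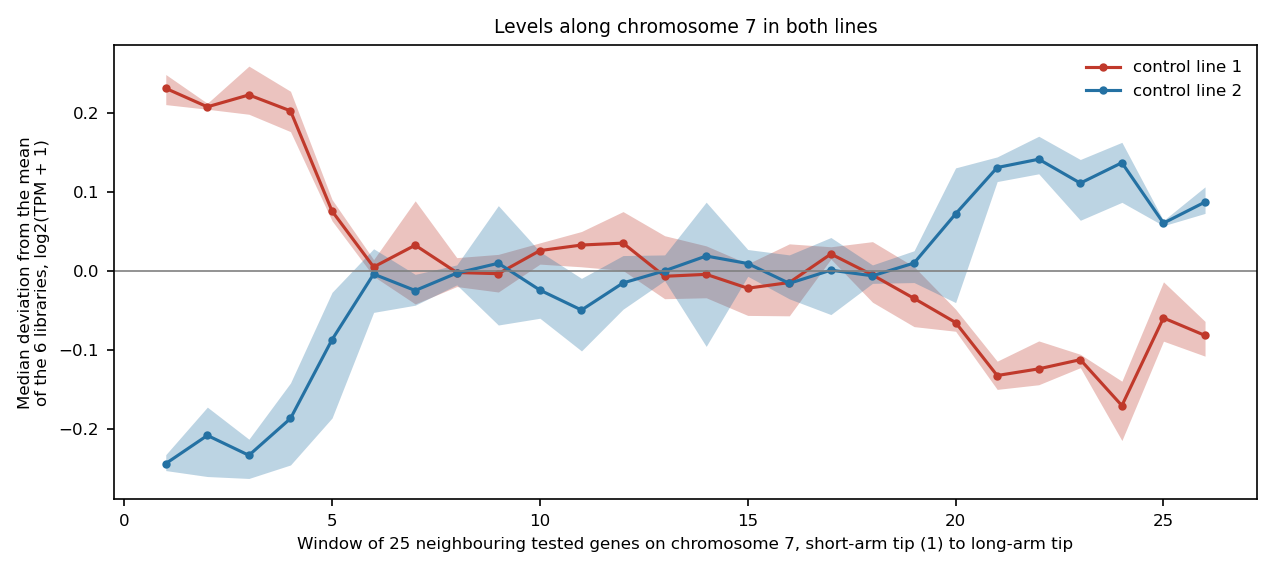
Median deviation of line 1 (red) and line 2 (blue) from the mean of the 6 libraries, in log2(TPM + 1), over 26 windows of 25 tested genes along chromosome 7, with the range over the 3 libraries of a line shaded. Line 1 lies above line 2 in the first 4 windows and below it in windows 21 to 26, by less in the last 2 of them, and in windows 5 to 20 the median difference runs from -0.12 to 0.15.

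The same stretches were read in the other C4-2B lines, as the median deviation of each library from the mean of the 6 libraries of line 1 and line 2. From this the library's own median over the other chromosomes was taken off. The values of line 1 and line 2 thus mirror each other by construction. For the short-arm stretch this was 0.20 ± 0.01 in line 1, 0.19 ± 0.02, 0.21 ± 0.01 and 0.20 ± 0.01 in the deletion lines m, ld9 and le5, -0.21 ± 0.02 in line 2 and -0.26 ± 0.06 in control line 3 (SD, n = 3 each). Line 1 thus lay within 0.02 of the 3 deletion lines, and line 2 nearer to control line 3. For the long-arm stretch it was -0.15 ± 0.01 in line 1, between -0.12 and -0.09 in the deletion lines, 0.14 ± 0.01 in line 2 and -0.06 ± 0.02 in control line 3, so here line 2 was the one apart. Control line 3 holds a library, its replicate 1, with 28.4% mitochondrially encoded TPM, and a value of -0.33 on the short arm, where its other 2 libraries had -0.22 each. These lines are read in stretches drawn from line 1 against line 2, so the values are a description.

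Outside chromosome 7 called genes were also found next to each other. Of 654 called genes 11.2% had a neighbouring tested gene called in the same direction and 2.45% one called in the other direction, against 5.31% and 4.62% of the 11954 genes not called. Besides TFPI with GULP1, such runs included KIF1A, MAB21L4 and UICLM on chromosome 2, and DNAJC3, UGGT2 and MBNL2 on chromosome 13. The call was lost in every leave-one-out fit for UICLM and UGGT2, in 5 of 6 for KIF1A (kept without replicate 1 of line 2), and for MBNL2 without replicate 1 or 3 of line 1 or replicate 3 of line 2, with limma adjusted p up to 0.136. MAOA, which breaks down monoamines, is next to KDM6A among the genes tested on the X chromosome. It had 90.3, 81.9 and 100.2 TPM in line 1 and 155, 147 and 150.1 TPM in line 2. GPC6, a cell surface proteoglycan next to GPC5-AS1 among the genes tested, had 17.3, 22.1 and 21.2 TPM in line 1. In line 2 it had 7.99, 7.45 and 7.32 TPM.

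Levels in all 6 C4-2B lines were compared gene by gene. Of the 793 called genes, line 1 lay above or below all 15 other C4-2B libraries for 206 (26.0%), and line 2 for 160 (20.2%). Over all 14924 genes tested these counts were 617 (4.13%) and 523 (3.50%). Such genes can only lie among the 4229 tested genes where line 1 and line 2 do not overlap. All 793 called genes are among those, so their larger shares follow in part from how they were chosen. For GULP1 line 2 was low alone, since the gene averaged 30.0 TPM in line 1, between 17.96 and 61.7 TPM in the 3 deletion lines, 0.383 TPM in line 2 and 32.0 TPM in control line 3. FOLH1 averaged 74.2 TPM in line 1, but 317 to 398 TPM in the deletion lines, 9.02 TPM in line 2 and 320 TPM in control line 3, so both compared lines were below the other 4. RAC2, S100P and DUSP4 were highest in line 2, RAC2 with 8.07 TPM there and 0.767 to 1.29 TPM in the other 5 lines. BMP7, LPL and ASS1 were highest in line 1, BMP7 with 27.5 TPM there and 2.96 to 7.28 TPM in the others. HSPA5 was highest in line 1, at 736 TPM, and lowest in line 2, at 411 TPM, with the other 4 lines at 442 to 595 TPM. MAP9 was lowest in line 1, at 27.8 TPM, and ranged from 36.3 to 146 TPM in the other 5.

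**Figure D5:**
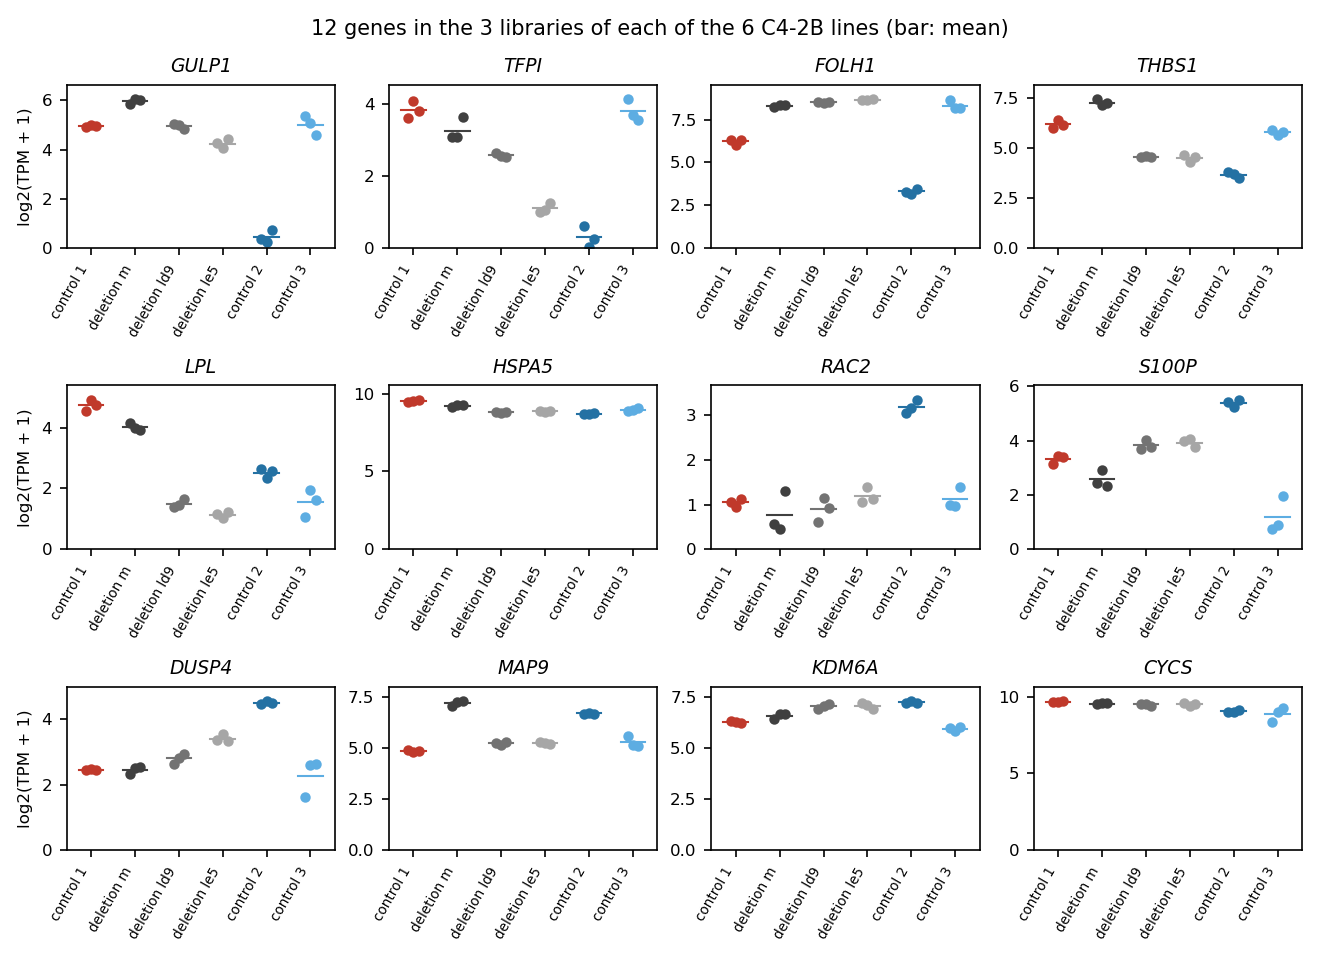
Levels of 12 genes described in the text in the 3 libraries of each of the 6 C4-2B lines, as log2(TPM + 1) from 0, with a bar at the mean of a line. GULP1, TFPI, FOLH1 and THBS1 are lowest in control line 2, and RAC2, S100P and DUSP4 are highest there.

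The count of called genes can be set beside those of other pairs of lines fitted the same way. Line 1 differed from line 2 in 793 genes (5.31%), and from the deletion lines m, ld9 and le5 in 1463, 2603 and 2745 genes (9.85%, 17.5% and 18.4%). Line 2 differed from the deletion lines in 1955, 1970 and 2045 genes (13.1%, 13.2% and 13.7%). The deletion lines also differed among themselves, m from ld9 in 2287 genes (15.4%) and from le5 in 2376 (16%), and ld9 from le5 in 28 (0.188%). In a fit on all 18 libraries, which share 1 estimate of the spread, the counts were 393 genes between line 1 and line 2, 636, 802 and 853 between line 1 and the deletion lines m, ld9 and le5, 980, 749 and 811 between line 2 and those lines, and 903 and 928 between m and the deletion lines ld9 and le5. Counts against control line 3 rested on its replicate 1: 423 genes (2.87%) differed between line 1 and control line 3 with it and 3800 without it, and 339 (2.3%) and 3128 genes between line 2 and control line 3. In the fit on all 18 libraries, which holds that replicate, control line 3 differed from line 1 in 5818 genes and from line 2 in 5408. By genes at least 2-fold apart, line 1 and line 2 differed in 115, line 1 and the deletion lines in 166 to 211, and deletion lines ld9 and le5 in 12 genes. Against control line 3 these counts were larger, 258 for line 1 and 239 for line 2. Without replicate 1 of control line 3 they were 383 and 368. No test of the difference between these counts was made, since the pairs share libraries.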

How the data were processed

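RNA was measured in 18 C4-2B libraries, 6 of them used for the comparison, made with a stranded mRNA kit per the labels' protocols. The deposited values are TPM made by the authors, for 60252 genes. Per the submitters' processing notes, the build was GRCh37 and the tools were RSEM 1.3.0, STAR 2.5.2b, DESeq2 1.14.1, featureCounts 1.5.1, Trimmomatic 0.35 and FastQC. Which of them made the TPM is not given in the sources used here. TPM keeps no counts, so depth is unknown and no interval for counting error was computed.

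Values were tested as log2(TPM + 1) with limma 3.58.1 in R 4.3.3 (lmFit, eBayes with trend, two-sided), in genes with at least 1 TPM in at least 3 of the 6 libraries, with Benjamini-Hochberg adjusted p under 0.05 over all of them. The added 1 shrinks the differences of low genes. Genes below 1 TPM throughout 1 line passed this filter only through the other line, where they were higher. Such genes include GULP1, TFPI, PKIA and the entries listed at 0 in a line. Fits without a library of the higher line did not test them. The fit was tested on simulated data with 200 changed genes. It recovered 48% of them at 1.5-fold, 86% at 2-fold and 96.5% at 4-fold, with 5, 8 and 15 false calls. Many differences of 1.5-fold or less would thus be missed. Same-numbered libraries were not paired: the correlations of their deviations were -0.10, -0.05 and -0.00. No 2 libraries were copies, since any pair differed in at least 24177 genes.

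The members and the 43 gene lists (955 of 961 entries matched) were chosen with earlier results of these data known. Named genes are HOXA13, JAZF1 and the HOXA cluster, the 15 highest and 15 lowest called genes whose lines do not overlap, the 5 most abundant called genes at least 2-fold apart in each direction, up to 3 called and 2 other members of each list, and the leading genes of chromosomes. Other genes of the text, such as those of the chromosome 7 stretches, gene copies and neighbours, further members of the unfolded protein response, luminal and proliferation lists, and KDM6B, were chosen after their values were seen. The alternatives were other scalings, filters, pseudocounts, sample sets and leaving out single libraries. Gene order and promoters came from RefSeq on GRCh38.p14, used for names, order and sequence only. Chromosome medians lay between -0.01 and 0.05 and are not described singly. A few genes, and 1 gene list, are not reported here.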

Additional observations from a re-analysis of the deposited data

How the results depend on the processing

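The count of 793 genes stayed within 1.5 times for 8 of the alternatives, at 564 to 782 genes, and also without replicate 1 of line 2, at 533. It fell to 514 with no filter on low values, to 393 in a fit on all 18 libraries, and to 101 in a fit on the 9 control libraries. When any other 1 library was left out it also fell further than 1.5 times, to as few as 283. Without replicate 1 of control line 3, a setting added after seeing the data, the control fit called 782 genes. The replicate number as a block gave 268 genes, 255 of them among the 793. Same-numbered libraries did not deviate together. Under it the short-arm stretch of chromosome 7 kept 21 calls and the long-arm stretch 8. Genes at least 2-fold apart numbered 70 both with a minimum of 5 TPM and with 9 control libraries, and 85 to 94 when 1 library was left out. The 9-control fit called 3 members of the unfolded protein response list and 1 gene with an ERSE, and the 18-library fit 4 with an ERSE. The short-arm median was 0.47 with a pseudocount of 0.1, and 0.40 both when scaled by median ratio and when normalized by quantiles. Its calls were 26 with 18 libraries, 1 with 9 controls and 19 to 35 when 1 library was left out. The long-arm median was -0.27 with a pseudocount of 0.1, -0.27 with median-ratio scaling, -0.29 with quantile normalization, -0.27 without mitochondrially encoded genes, and -0.27 to -0.24 when 1 library was left out. Its calls were 15 with no filter, 9 with 18 libraries, 1 with 9 controls, 14 with a robust prior and 6 to 20 when 1 library was left out. The cause of these shifts was not tested. HOXA13 stayed uncalled in every setting run. Of 137 called genes followed through the alternatives, 35 kept their call in every setting that tested them and 0 changed sign. Not every setting tested all 137. Fits without 1 library of line 1 tested 127 of them, and fits without 1 library of line 2 tested 132. A minimum of 5 TPM left 113. Depth is unknown, so what counting error limits could not be shown.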
